A study of Homo sapiens with 6 samples.

Results

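Cathepsins are the proteases of the lysosome, the acidic compartment in which cells break down protein that was taken up or recycled. The 10 genes described here encode cathepsins A, B, C, D, F, H, K, L, S and Z. They were chosen by their gene symbols when earlier results of these same libraries were known, and all 10 were found among the 26899 genes of the counts table. Their differences between the groups are therefore given as a description, and the calls of the fit over all genes are counted for them without being read as support.

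Cathepsins are made as inactive precursors, most are tagged with mannose 6-phosphate in the Golgi, and receptors for that tag carry them to the lysosome. They fall into 3 classes by the residue that cuts the peptide bond. CTSB, CTSC, CTSF, CTSH, CTSK, CTSL, CTSS and CTSZ are cysteine proteases of the papain family, CTSD is an aspartic protease, and CTSA is a serine carboxypeptidase. In the kidney, proximal tubule cells take up filtered protein from the urine and degrade it with these enzymes.

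The study compared HK-2 cells labelled as ANXA2 knockdown with HK-2 cells labelled as control, in 3 RNA-seq libraries each. HK-2 is an established human proximal tubule line transformed with human papillomavirus 16, and both groups share that background. Plasmids were introduced with a lipid reagent. The titles and the treatment field call the controls wild type (WT), whereas the descriptions call the same samples shCtrl and the others shANXA2. Whether the controls carried a hairpin, when cells were harvested, and whether a group is 1 clone or separate cultures was not stated, so p-values measure only the spread between these libraries, which may be technical.

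Library totals were 24231267 to 34561675 counted reads. The targeted gene was not detectably lower. ANXA2, encoding a membrane-binding annexin, had 1598 ± 119 CPM in the control-labelled libraries and 1539 ± 21.3 CPM in the knockdown-labelled ones (SD, n = 3) (edgeR log2 fold change -0.05, standard error 0.075, Benjamini-Hochberg adjusted p 0.848). The groups are called by their labels for this reason. CPM are read counts scaled to library size, with trimmed-mean (TMM) factors between libraries. Of the epithelial kidney markers KRT8, KRT18 and PAX8 were abundant, whereas CDH1 had 2 to 16 reads and PAX2 154 to 250 reads a library, and the brush border enzyme gene GGT1 had 5406 to 9247 reads a library. The proximal tubule endocytic receptor genes LRP2 and CUBN had at most 1 and 12 reads, and the water channel gene AQP1 at most 4. The 6 leukocyte and macrophage markers found (of 8 listed) summed to 3.33 to 5.75 CPM in the control-labelled libraries and 4.23 to 7.24 CPM in the knockdown-labelled ones, with CD14 at 36 to 118 reads, CD68 at 31 to 101 reads, and LYZ and AIF1 at no more than 4 and 3 reads. The 5 fibroblast markers summed to 29.5 to 38 CPM in the control-labelled libraries and 30.6 to 31.3 CPM in the knockdown-labelled ones, mostly from LUM (663 to 789 reads) and COL1A1 (130 to 331 reads), while COL3A1 had at most 3 reads. The part of these markers in the cathepsin values was not tested, and in bulk RNA fewer cells of a type and less RNA per cell cannot be told apart.

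In order to show what the regulatory start of these genes looks like, promoter windows of 300 bases were read from a set of RefSeq promoters on GRCh38.p14. Each window covers 250 bases before and 50 after the annotated start. The set at hand held windows for 7 of the 10 genes and none for CTSB, CTSK and CTSS, whose promoters were therefore not searched. The letters CACGTG, the core to which the lysosomal regulators TFEB, TFE3 and MITF are known to bind, were searched on both strands (the word reads the same on each). They were found in 3 of these 7 windows, those of CTSA, CTSD and CTSF, and in 7.26% of all 35116 windows of this length. The 7 windows were richer in CG pairs (22 to 43, against a median of 14 over all windows), and CACGTG contains such a pair. The shares are therefore not like for like, and no enrichment is read from them. The extended form TCACGTGA, which contains that core, was found in CTSA and in 0.98% of all windows. The interferon-type letters GAAANNGAA were found in 0 of the 7 windows and in 8.11% of all. The GC content of the 7 windows was 58% to 81%, against a median of 58.7% over all windows. These shares are not like for like either, and no depletion is read from them. CTSS had no window and was not searched. CTSC, CTSH, CTSL and CTSZ held none of the 3 words, which says only that these letters are not in that window. The stretches with the core are shown 5′ to 3′ on the strand of the gene with CACGTG in capitals. That of CTSD covers chr11:1763957-1763986 (minus strand) and that of CTSA chr20:45891290-45891319 (plus strand). Those of CTSF cover chr11:66568640-66568669 and chr11:66568712-66568741 (minus strand). Each stretch lies before the start used here but inside the wider span that GENCODE 44 gives its gene. The outer end of that span is farther upstream. A match is not evidence of binding.
CTSD: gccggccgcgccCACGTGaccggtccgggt
CTSA: tgtCACGTGgcgccggagttCACGTGactc
CTSF, near the start: ccctgcgcgcccCACGTGcctcctgtaaac
CTSF, farther upstream: acatataacaagCACGTGatagaggtcagt

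Levels between genes were compared with the deposited FPKM, which divide the counts by transcript length and library depth. CTSZ and CTSD dominated the set. CTSZ, a carboxypeptidase of the papain family, had 649.9 ± 33.7 FPKM over the 6 libraries (SD, n = 6) and ranked 94 among the 15299 genes tested. CTSD, the main aspartic protease of the lysosome, had 438.3 ± 94.8 FPKM and ranked 133. CTSA, which also protects the enzymes GLB1 and NEU1 in a shared complex, followed with 149.8 ± 15.6 FPKM, and the aminopeptidase gene CTSH with 105.6 ± 24.5 FPKM.

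The other 6 genes lay lower. CTSB, an abundant cysteine protease of many cell types, had 43.32 ± 3.24 FPKM, and the endopeptidase gene CTSL had 31.86 ± 2.27 FPKM. CTSS, known for cutting the invariant chain in antigen-presenting cells, had 29.91 ± 11.2 FPKM. CTSC, which activates serine proteases of immune granules, had 13.12 ± 0.702 FPKM and CTSF had 8.525 ± 1.82 FPKM. CTSK, the collagen-degrading cathepsin of osteoclasts, was the lowest at 0.51 ± 0.165 FPKM, resting on 17 to 41 reads a library, so its values are imprecise. The osteoclast markers OSCAR and CALCR had at most 11 and 3 reads.

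In the deposited values, the order of these levels was the same in each of the 6 libraries except for CTSL and CTSS. CTSS was above CTSL in 4 libraries, but below it in control replicate 1 and knockdown replicate 3. The ranges of CTSA and CTSH over the libraries also overlapped, although CTSA was above CTSH within each library, by 1.11 to 1.76 times. The ranges of the other neighbours in the order did not overlap. The step from CTSF to CTSK was the widest, at 11.4 to 25.7 times.

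**Figure D1:**
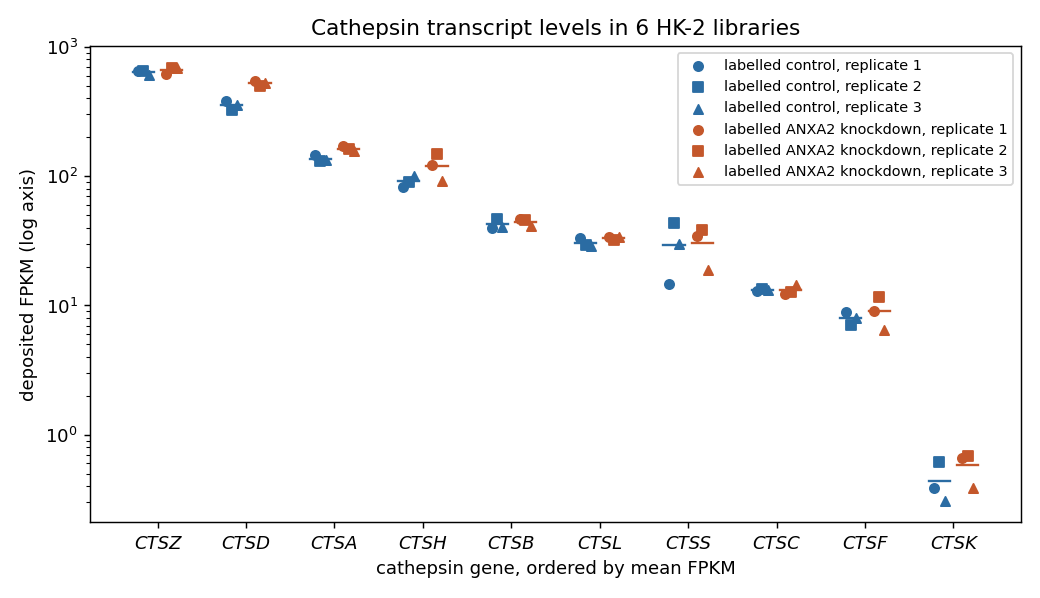
Deposited FPKM (log axis) of the 10 cathepsins in each library, ordered by mean, with blue for control-labelled libraries, orange for the knockdown-labelled ones, 1 marker shape per replicate number and a line at each group mean. CTSZ and CTSD lie highest, CTSK lies at 0.31 to 0.69 FPKM, and CTSS is the gene of the upper 9 whose points spread most.

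To examine how far the genes differed between the labels, the value in each library was compared before any fold change. For CTSD the control-labelled libraries had 852.8, 723.8 and 802.6 CPM for replicates 1 to 3. The knockdown-labelled ones had 1239, 1123 and 1180 CPM. The lowest of the latter lay above the highest of the former, with means of 1181 ± 57.8 and 793.1 ± 65 CPM (SD, n = 3). The fitted log2 fold change over all genes (edgeR) was 0.57 with a standard error of 0.085, or 1.49-fold with a 95% interval of 1.3 to 1.7. CTSD (ENSG00000117984.12) occupies chr11:1752752-1764573 on the minus strand.

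CTSD reads carry an ambiguity. The gene RP11-295K3.1 (ENSG00000250644.2), whose models read through CTSD on the same strand, shares exon sequence with 22.9% of the CTSD exon bases. It held 8640, 8879 and 10163 reads in the control-labelled libraries and 15572, 14553 and 12119 in the knockdown-labelled ones, which is 35.6% to 41.5% of the CTSD reads. How the counting divided reads between these genes was not stated. With these reads added to CTSD (chosen after the data were seen) the log2 fold change was 0.55. The levels, ranks and shares of CTSD given here use only the reads assigned to CTSD. In FPKM, CTSZ was above CTSD by as little as 1.13 times, so their order may depend on how reads were divided.

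CTSA was the other cathepsin whose groups did not overlap. Its control-labelled libraries had 360.7, 321.3 and 329.6 CPM and the knockdown-labelled ones had 424.2, 407.8 and 383.8 CPM. The means were 405.2 ± 20.3 and 337.2 ± 20.8 CPM (SD, n = 3), and the fit gave a fold of 1.2 (95% interval 1.05 to 1.37; log2 fold change 0.27, standard error 0.086). CTSA occupies chr20:45890144-45898949 on the plus strand. On the opposite strand PLTP overlaps 3.81% and NEURL2 11.1% of its exon bases, and whether counting used strand was not stated. PLTP held 1125 to 1897 reads, against 8799 to 14476 for CTSA.

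CTSH was higher in only 2 of the 3 knockdown-labelled libraries. Those had 284.3, 345.5 and 211.4 CPM for replicates 1 to 3, against 192.3, 205.9 and 233 CPM in the control-labelled libraries. Knockdown replicate 3 thus lay within the control range. The log2 fold change of CTSH was 0.41 (standard error 0.16, fold 1.33, 95% interval 1.03 to 1.72), with 0.24 when knockdown replicate 2 was left out and 0.58 when knockdown replicate 3 was.

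Among the 10 cathepsins, 0 passed an adjusted p of 0.05 by edgeR. In this comparison 0 of 15299 tested genes (0%) passed and 1251 had an unadjusted p under 0.05. Estimates lay above 0 for 10 cathepsins, against 49% of all tested genes. The groups did not overlap, with the knockdown-labelled libraries higher, for 2 cathepsins, against 7.94% of all tested genes. With those libraries lower, the count was 0 cathepsins against 7.7% of all tested genes. The median log2 fold change was 0.17 over the 10 and -0.0065 over all tested genes. Since the genes were listed with this contrast known, nothing is read from these counts.

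**Figure D2:**
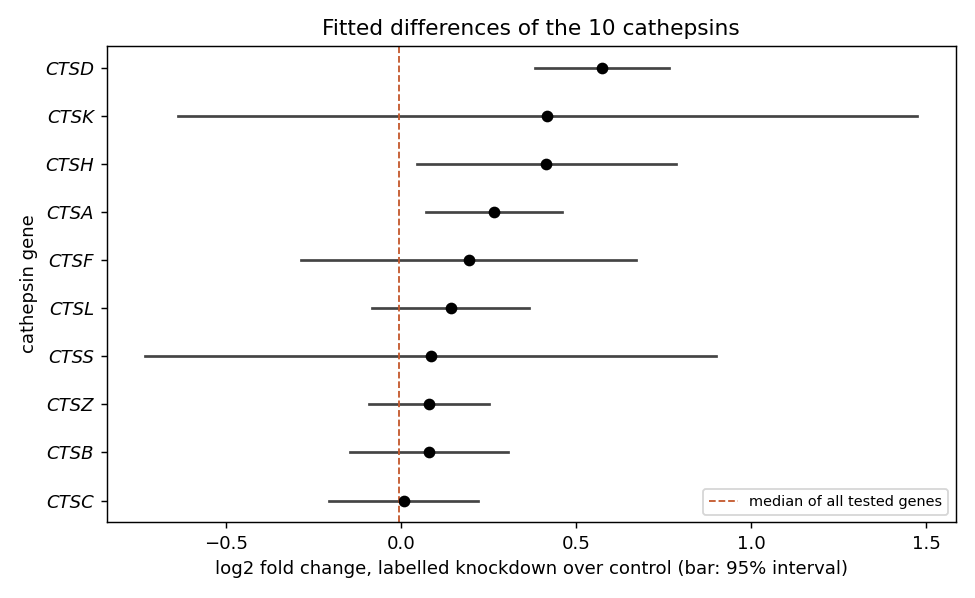
Fitted log2 fold change (point) and 95% interval (bar) of each cathepsin, knockdown-labelled libraries over the control-labelled ones, with the median of all 15299 tested genes as a dashed line. The intervals are not adjusted for the number of genes tested. Those of CTSD, CTSA and CTSH lie above 0 (adjusted p 0.156, 0.599 and 0.605 by edgeR), and those of CTSK and CTSS are the widest.

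CTSZ, CTSC, CTSB and CTSL differed little between any libraries. CTSZ had 1031, 1013 and 959.3 CPM in the control-labelled libraries and 988.9, 1104 and 1081 CPM in the knockdown-labelled ones, and the groups overlapped (fold 1.06, 95% interval 0.939 to 1.19). Exons of NELFCD on the opposite strand cover 31.7% of the CTSZ exon bases, and NELFCD held 10.4% to 12.5% as many reads. CTSC had 105.8, 106.5 and 105.5 CPM against 99.75, 104.2 and 115.4 CPM (fold 1.01, 95% interval 0.867 to 1.16). CTSB had 185.9 ± 15.3 CPM in the control-labelled libraries and 196.4 ± 14.1 CPM in the knockdown-labelled ones (SD, n = 3), with a fold of 1.06 (95% interval 0.904 to 1.23). CTSL had 75.95 ± 6.44 and 83.77 ± 2.72 CPM (fold 1.1, 95% interval 0.944 to 1.29), and control replicate 1 lay above knockdown replicate 2. The highest library was 1.15 to 1.2 times the lowest for these 4 genes. Of the 8915 tested genes with a mean of at least 10 CPM, 6.9% varied less than CTSZ, 7.93% less than CTSC, 9.87% less than CTSB and 15.6% less than CTSL.

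CTSS varied most, and not by label. Control replicates 1, 2 and 3 had 64.12, 184.8 and 129.9 CPM, and knockdown replicates 1, 2 and 3 had 152.2, 168.4 and 80.94 CPM. Control replicate 1 and knockdown replicate 3 were the low libraries, and control replicate 2 was the highest at 2.88 times the lowest. Of the same 8915 genes, 98.5% varied less than CTSS. The group means of CTSS, 133.9 ± 46.6 and 126.2 ± 60.4 CPM (SD, n = 3), differed by less than their spread, with a fold of 1.06 and a 95% interval of 0.603 to 1.86. The estimate was -0.23 on the log2 scale without control replicate 1 and 0.47 without control replicate 2.

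CTSF and CTSK, the least abundant, also overlapped between the labels. CTSF had 19.39, 15.05 and 17.14 CPM in the control-labelled libraries and 19.84, 25.17 and 13.85 CPM in the knockdown-labelled ones, so knockdown libraries held both its highest and its lowest value. Its log2 fold change of 0.19 (95% interval of the fold 0.821 to 1.59) dropped to -0.023 when knockdown replicate 2 was left out and reached 0.39 when replicate 3 was. CTSK had 0.697, 1.1 and 0.546 CPM against 1.2, 1.24 and 0.693 CPM, and a fold of 1.34 (95% interval 0.643 to 2.78). The log2 estimate of CTSK was 0.42, with 0.21 when control replicate 3 was left out and 0.76 when control replicate 2 was. CTSK and CTSS are neighbours on the minus strand of chromosome 1 with 28922 bases between them, and control replicate 1 and knockdown replicate 3 were among the lower libraries for both, while control replicate 3 was the lowest for CTSK only.

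**Figure D3:**
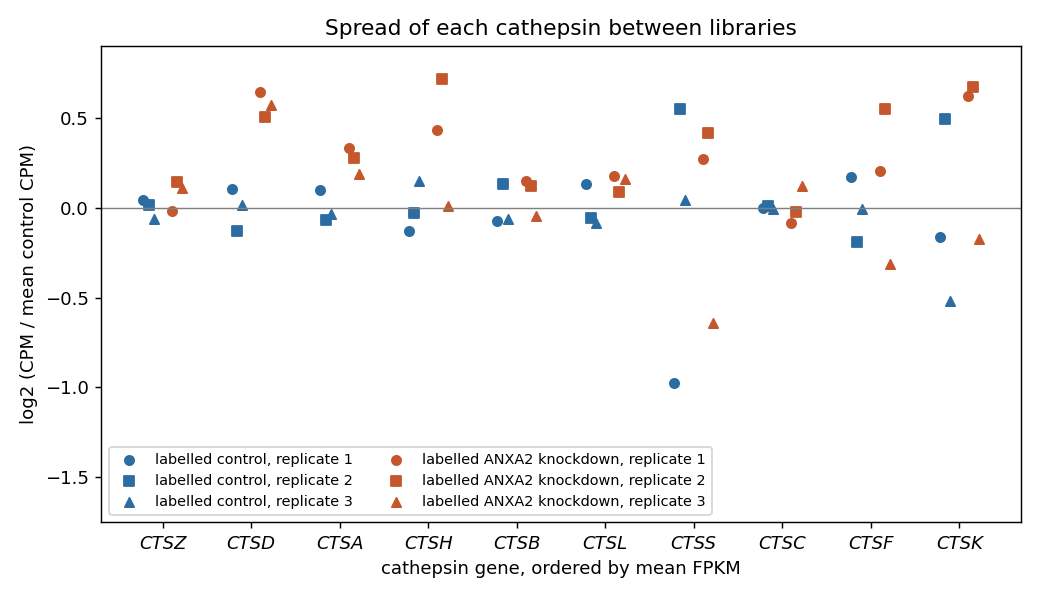
Log2 ratio of the CPM in each library to the mean of the control-labelled libraries, for the 10 cathepsins in order of level (blue, labelled control; orange, labelled knockdown; marker shapes, replicate numbers 1 to 3). The orange points of CTSD and CTSA lie above their blue points, whereas for CTSS control replicate 1 and knockdown replicate 3 lie lowest.

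The 2 libraries low for CTSS were also low for genes induced by NF-kB, the transcription factor of inflammation. NFKBIA, TNFAIP3 and CXCL8 summed to 339.2, 1747 and 2399 CPM in control replicates 1, 2 and 3 and to 1985, 2481 and 774.3 CPM in knockdown replicates 1, 2 and 3, most of it CXCL8. Control replicate 1 and knockdown replicate 3 also had the fewest counted reads (24231267 and 28866835) and the fewest genes with a read (18861 and 19569). The other libraries had 31295698 to 34561675 reads and 20764 to 21819 genes with a read. The part of these differences in the CTSS values was not tested. The interferon-induced genes ISG15, IFIT1, MX1 and OAS1 took another order. They summed to 33.49, 25.76 and 28.89 CPM in the control-labelled libraries and 89.23, 61.6 and 147.7 CPM in the knockdown-labelled ones, and the library with the highest sum, knockdown replicate 3, was the second lowest for CTSS. Among genes with a mean of at least 10 CPM, the profiles closest to CTSS over the 6 libraries were those of EPHB2 (root mean square distance of centred log2 CPM 0.0752), P4HA2 (0.11) and C9orf16 (0.114), against a median of 0.582 over all 8914 genes compared. The closest to CTSK were ENO3 (0.166), DDIT4 (0.208) and MALAT1 (0.245), against a median of 0.487.

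**Figure D4:**
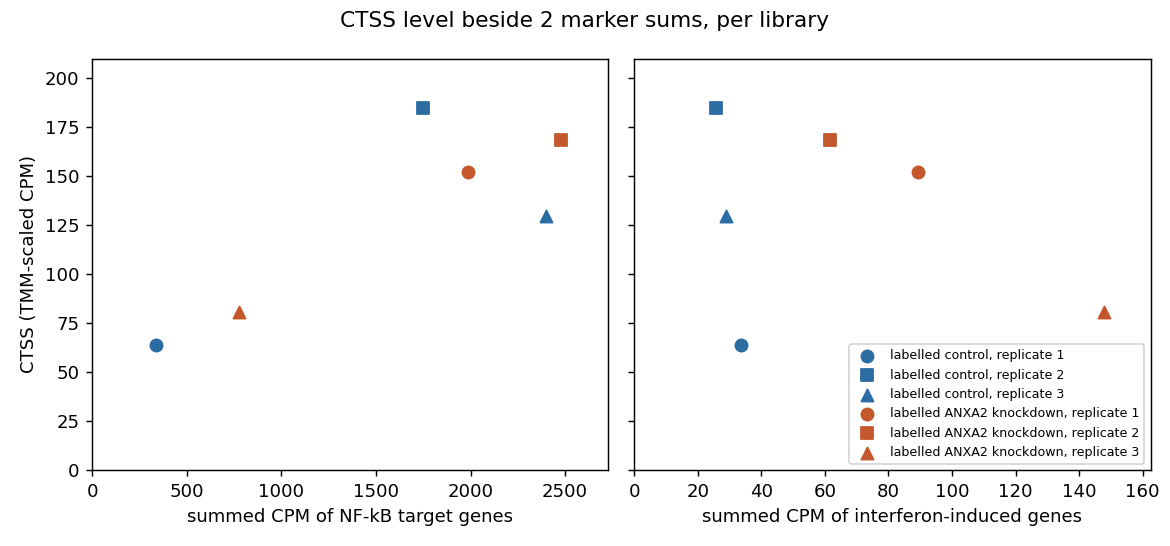
CTSS CPM in each library against the summed CPM of 3 NF-kB target genes (left) and of 4 interferon-induced genes (right), with colours for labels and marker shapes for replicate numbers 1 to 3. Control replicate 1 and knockdown replicate 3 are lowest for CTSS and for the NF-kB sum, while knockdown replicate 3 has the highest interferon sum.

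Summed over the 10 genes, cathepsin transcripts reached 1364, 1339 and 1320 FPKM in the control-labelled libraries and 1591, 1638 and 1573 FPKM in the knockdown-labelled ones. The sums did not overlap and their means had a ratio of 1.19, which was 1.09 without CTSD (chosen after the data were seen). The 8 papain-family genes alone summed to 850.1 ± 27.2 FPKM in the control-labelled libraries and 915.5 ± 55.8 FPKM in the knockdown-labelled ones (SD, n = 3), and these overlapped. CTSD made up 26.41% ± 1.76 of the summed FPKM in the control-labelled libraries and 32.66% ± 2.14 in the knockdown-labelled ones, while CTSZ made up 47.36% ± 1.25 and 41.52% ± 2.41. The share was also lower without overlap for CTSB, CTSL and CTSC, while that of CTSA was 10.2% ± 0.407 and 10.17% ± 0.424. Shares of 1 sum are tied, so a higher CTSD share by itself lowers the others. In CPM, CTSZ, CTSB, CTSL and CTSC were not lower and overlapped between the labels, with folds of 1.01 to 1.1. In terms of reads, the 10 genes took 0.2875% ± 0.00532 and 0.3434% ± 0.00923 of all counted reads.

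To place the cathepsins among the genes that act with them, 7 further lists were read from the fit over all genes, in which 0 of the 31 genes tested passed an adjusted p of 0.05 in either direction. By level, CTSV and CTSO, at means of 5.098 ± 0.399 and 1.802 ± 0.441 FPKM (SD, n = 6), stood between CTSF and CTSK. CTSW had 0.3033 ± 0.17 FPKM, and its range over the libraries overlapped that of CTSK. CTSV, the closest relative of CTSL, had 24.63 and 24.68 CPM in the control-labelled and knockdown-labelled libraries (log2 fold change 0.0036, adjusted p 0.995 by edgeR), CTSO had 4.954 and 6.337 CPM (0.36, adjusted p 0.689), and CTSW had 0.486 and 0.398 CPM (-0.31, adjusted p 0.912). No window of 100 bases of the CTSL transcripts occurred in another gene of GENCODE 44, CTSV included, so reads of such length can tell the relatives apart.

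Cystatins, which block papain-family cathepsins but not CTSA or CTSD, were represented by CSTB and CST3. CSTB, the cytosolic inhibitor, had 335.7 CPM in the knockdown-labelled libraries and 251.7 CPM in the control-labelled ones, without overlap (log2 fold change 0.42, standard error 0.087, adjusted p 0.583 by edgeR). CST3, the secreted inhibitor, had 170.4 and 151.6 CPM (0.17, adjusted p 0.69). In FPKM, CSTB plus CST3 came to 0.1759 ± 0.0118 of the papain-family sum in the control-labelled libraries and 0.2073 ± 0.0217 in the knockdown-labelled ones (SD, n = 3), and the groups overlapped. CSTB alone came to 0.13 ± 0.0065 and 0.1598 ± 0.0178 of that sum without overlap, and CST3 alone to 0.04589 ± 0.00679 and 0.04753 ± 0.00566 with overlap.

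The 6 tested lysosomal peptidases outside the cathepsin name had estimates above 0, against 49% of all tested genes. Their median log2 fold change was 0.25, although 0 of them passed the test. DPP7, a dipeptidyl peptidase, had 168.7 and 135.7 CPM in the knockdown-labelled and control-labelled libraries, without overlap (log2 fold change 0.31, adjusted p 0.599 by edgeR). LGMN, the legumain that trims cathepsin precursors, had 174.5 and 150.9 CPM (0.21, adjusted p 0.631), and PRCP had 83.49 and 72.78 CPM (0.2, adjusted p 0.722). NAPSA, an aspartic protease related to CTSD (named after its values were seen), had 8.505 CPM against 4.335 CPM (0.98, adjusted p 0.599). Of the CTSA complex partners, NEU1 had a log2 fold change of 0.15 (adjusted p 0.735), GLB1 -0.069 (adjusted p 0.873) and GALNS 0.27 (adjusted p 0.61).

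For the genes that tag and sort lysosomal enzymes, 6 of 9 estimates were above 0 (49% of all tested genes) and 3 below. Their median was 0.022. The mannose 6-phosphate receptor genes M6PR and IGF2R had 314.6 and 257.9 CPM in the knockdown-labelled libraries against 309.8 and 257.8 CPM (adjusted p 0.969 and 0.999 by edgeR). GNPTG, a subunit of the tagging enzyme, had 38.96 against 29.95 CPM (log2 fold change 0.38, adjusted p 0.599). Of the transcription regulators, TFE3 had 217 against 201.9 CPM (0.1, adjusted p 0.739), STAT3 had 115.9 against 112.2 CPM (0.047, adjusted p 0.903) and IRF1 had 74.44 against 70.5 CPM (0.078, adjusted p 0.846). TFEB (named after its values were seen) had 6.24 against 5.588 CPM with overlap (0.16, adjusted p 0.838 by edgeR). MITF (named after its values were seen) was the only regulator tested with an estimate below 0, at 23.95 against 34.17 CPM without overlap (-0.51, adjusted p 0.599). SPI1 and CIITA (not tested, and named after their values were seen) had at most 1 and 5 reads. Of the antigen processing partners, CD74 had 166.2 against 137.8 CPM (0.27, adjusted p 0.686) and HLA-DMA 6.971 against 5.78 CPM (0.27, adjusted p 0.734).

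**Figure D5:**
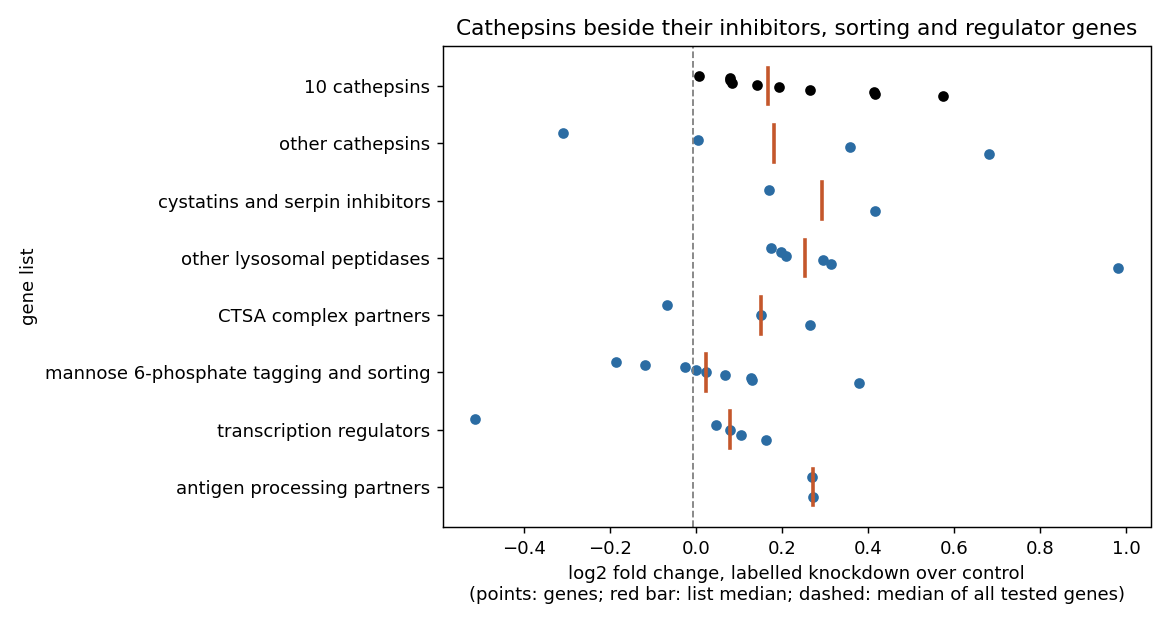
Log2 fold changes, knockdown-labelled libraries over the control-labelled ones, of the 10 cathepsins (black) and of the tested genes of 7 related lists (blue), with the median of each list (red bar) and of all tested genes (dashed line). The cathepsins and the other lysosomal peptidases lie above 0, with medians of 0.17 and 0.25. Above 0 were 49% of all tested genes, and 0 of the genes shown passed an adjusted p of 0.05.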

How the data were processed

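Polyadenylated RNA of 3 HK-2 libraries labelled control and 3 labelled ANXA2 knockdown was prepared with a directional protocol. The authors deposited raw read counts per gene (26899 genes) and FPKM values (26803 genes, rounded). The submitters' processing notes name GRCh38, bcl2fastq, TopHat2 and edgeR without versions. The annotation, the counting program and its use of strand were not stated in the sources. Over 2556 genes above 20 FPKM in every library, the ratio of counts to deposited FPKM split into 1 library factor and 1 gene factor (largest SD 9.67e-05, log2), so both tables hold 1 measurement.

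Counts were fitted in edgeR 4.0.16 by quasi-likelihood (R 4.3.3, TMM, filterByExpr with minimum count 10 and total 15, 15299 genes, two-sided, Benjamini-Hochberg over all tested genes, threshold 0.05). The fit was tested on simulated data. CPM use library size times TMM factor (0.9868 to 1.021). Intervals are 95%, come from the fit and are not adjusted for the number of genes tested. Coordinates are from GENCODE 44 on GRCh38. Within groups, replicates differed beyond sampling noise (chi-square per degree of freedom 10.3 to 54.2). No batch is given in the labels.

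The cathepsins and the gene lists were chosen with earlier results of these data known. Named were all 10 cathepsins, the 3 tested genes with the highest mean FPKM of each of the 7 pathway lists and any past the threshold, marker and state genes by their sums with defining markers near 0, and the 3 nearest profiles (mean of at least 10 CPM) of the 2 cathepsins with the widest span of log2 CPM. Other marker genes, TFEB, MITF, NAPSA, SPI1 and CIITA were named after their values were seen. CXCL1 of the NF-kB list was not analysed here. Alternatives were RLE, upper-quartile and library-size scaling, no filter and a filter of 1 CPM in 3 libraries, DESeq2 1.42.0, limma 3.58.1 (voom, and log2(FPKM + pseudocount) with 1 or 0.1), a replicate block, and omission of each library.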

Additional observations from a re-analysis of the deposited data

How the results depend on the processing

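For genes past the threshold, edgeR gave 0 of 15299 (1251 at an unadjusted p under 0.05). It gave 165 of 26899 without the low-count filter, and DESeq2 gave 31 of 26899. Omission of 1 library gave 0 to 4, the 4 without knockdown replicate 2. Of the pathway lists, 2 genes (CSTB and NAPSA) passed without the filter and 0 under the other alternatives. CTSD passed without the filter and in DESeq2, and CTSH without the filter. The causes were not tested. Each cathepsin fold change moved by less than 1 SD between replicates in its alternatives, and 153 of the 161 values were above 0 and 8 below (of CTSC, CTSF and CTSS). The ratio of summed FPKM, 1.19, was 1.09 without CTSD and 1.18 to 1.2 with 1 library left out. The inhibitor ratio was 1.18 times as high in the libraries labelled knockdown, 1.23 times with CSTB alone and 1.04 times with CST3 alone. Deviations from the group mean correlated at -0.0616, 0.118 and -0.203 for same-numbered libraries, and at -0.226 to 0.217 for differently numbered ones. Deviations from a mean of 3 are tied to each other. Whether replicate numbers mark pairs therefore cannot be told from these values, and the labels do not say. With the replicate block, 0 genes passed, 0 of the list genes passed and the CTSD estimate was 0.58. With 3 libraries a group, small differences in CTSS, CTSF and CTSK could not be resolved.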
